A study of Mus musculus with 4 samples.

Results

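The 30 genes described here encode proteins of DNA replication and S phase, the stretch of the cell cycle in which the genome is copied. They were chosen by symbol, as a named list, and all 30 are among the 24444 genes of the deposited table. All 30 were high enough to enter the test, with normalised read counts between 74.1 and 5847 in single libraries. The cells were grown in culture from the oesophagus of C57BL/6J mice, and poly(A) RNA was sequenced in 2 wild-type (WT) libraries and 2 libraries labelled HET. The HET samples are labelled with CRISPR/Cas9 microinjection and with an Nfe2l2-E79Q cassette, and the WT samples with neither. Nfe2l2 encodes NRF2, a transcription factor of antioxidant and detoxification genes, and E79Q is a tumour-derived substitution in it. All 4 column names of the table carry the word SV40, which the labels do not explain. The sources used here do not give the age or number of the animals, or say whether a recombinase acted in the cells. Nothing in the labels says that the 2 libraries of a group came from separate animals or cultures. The p-values rest on how alike the differences of the 2 pairs of libraries are, and on a spread pooled across genes. They cannot be taken to measure a spread between animals.

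Before S phase, the licensing factors ORC, CDC6 and CDT1 load the MCM2-7 ring onto origins of replication. CDC45 and the GINS complex then join the ring to form the active helicase, and DNA polymerase alpha with primase starts each new strand, which other polymerases extend on the sliding clamp PCNA. Supply of deoxynucleotides, supply of histones, and repair of replication errors run beside this machinery, and E2F transcription factors, held back by the retinoblastoma family, control many of the genes. In a stratified epithelium such as the oesophagus, replication is largely a property of the basal layer.

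The promoters of these genes are known for E2F sites, so the 250 bases before each annotated start site were searched in the RefSeq promoter table (build GRCm38.p6, while the submitters' processing notes name mm9 for the data). Of the 30 members 24 had an entry there, in 27 windows; Ccne2, Dscc1, Exo1, Gins2, Mcm4 and Tipin had none. The E2F motif was written as TTTCCCGC, TTTCGCGC, TTTGCCGC or TTTGGCGC, on either strand. It was found in 9 of the 24 members (37.5%), against 2.16% of all 27025 genes in the table and 4.30% of the 8525 genes that were also tested for expression. A CCAAT box (CCAAT, either strand) was found in 18 of the 24 (75.0%), against 37.5% of all genes and 41.0% of tested genes. The core of the antioxidant response element that NRF2 binds (TGACNNNGC, either strand) was found in 4 of the 24 (16.7%), against 11.5% of all genes and 1197 of the 8525 tested genes. Those 4 were Cdc6, Dtl, Pcna and Rrm2. A match is a run of letters and not a shown binding site.

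Stretches of 60 bases, chosen because they hold an E2F match (in capitals), show what such matches look like, read 5′ to 3′ on the strand of the gene. The other 62.5% of the members with an entry had no match. Mcm6, Pola1 and Dtl had the most matches of their role, Cdca7 had 1 match like Casp8ap2 and Uhrf1, no repair or nucleotide member had one, and Mcm5 and Mcm7 were added after their expression values were seen. The stretches lie at chr1:128359780-128359839 (Mcm6, minus strand), chr8:75109332-75109391 (Mcm5, plus), chr5:138172015-138172074 (Mcm7, minus), chrX:93632260-93632319 (Pola1, minus), chr2:72476122-72476181 (Cdca7, plus) and chr1:191575545-191575604 (Dtl, minus), all upstream of the start site in GRCm38.p6.
Mcm6: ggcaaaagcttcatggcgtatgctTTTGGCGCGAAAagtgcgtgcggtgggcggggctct
Mcm5: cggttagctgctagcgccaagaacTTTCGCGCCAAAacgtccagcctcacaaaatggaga
Mcm7: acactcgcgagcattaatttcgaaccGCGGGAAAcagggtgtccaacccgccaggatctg
Pola1: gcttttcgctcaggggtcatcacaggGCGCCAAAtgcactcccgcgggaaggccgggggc
Cdca7: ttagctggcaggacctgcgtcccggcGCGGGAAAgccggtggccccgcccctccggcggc
Dtl: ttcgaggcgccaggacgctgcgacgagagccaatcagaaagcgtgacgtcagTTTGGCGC
In Mcm5 and in Mcm6 the capitals are 2 overlapping matches on opposite strands, and the 3 matches of Mcm6 include 1 outside the stretch shown.

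The comparison asks which of these genes differed between HET and WT cells. Values are deposited variance-stabilised values on a log2-like scale, and a difference is HET minus WT ± the SE moderated across genes (limma, n = 2 pairs of libraries with the same replicate number). A gene is called at an adjusted p under 0.05 over all 10857 genes tested. Tyms, Mcm7, Rrm2, Slbp, Mcm5, Fen1, Prim1, Mcm6 and Gins2 were called lower in HET, and Cdca7 and Blm higher. That is 9 of 30 lower (30%), where 18.9% of all tested genes were called lower, and 2 of 30 higher (6.67%), where 21.5% were called higher. In either direction 11 members were called (36.7%), against 40.4% of all genes, so the share called was near the background. With no filter on low values limma called 0 of them at the adjusted threshold, and 8 lower and 0 higher at an unadjusted p under 0.05. The median difference was -0.07 over the members and 0.01 over all tested genes, and 20 members lay below 0 and 10 above. In bulk RNA, fewer cells in S phase and less RNA per cell cannot be told apart.

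The deposited values are centred so that the WT and HET values of each pair have the same sum in every gene. The groups therefore do not overlap exactly where both pairs differ in the same direction, which held for 28 of 30 members (18 lower, 10 higher in HET) and for 79.2% of all tested genes. The exceptions were Casp8ap2 and Chaf1b. An exact test on 2 pairs cannot give a two-sided p under 0.5, so every call rests on the spread pooled across genes.

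**Figure D1:**
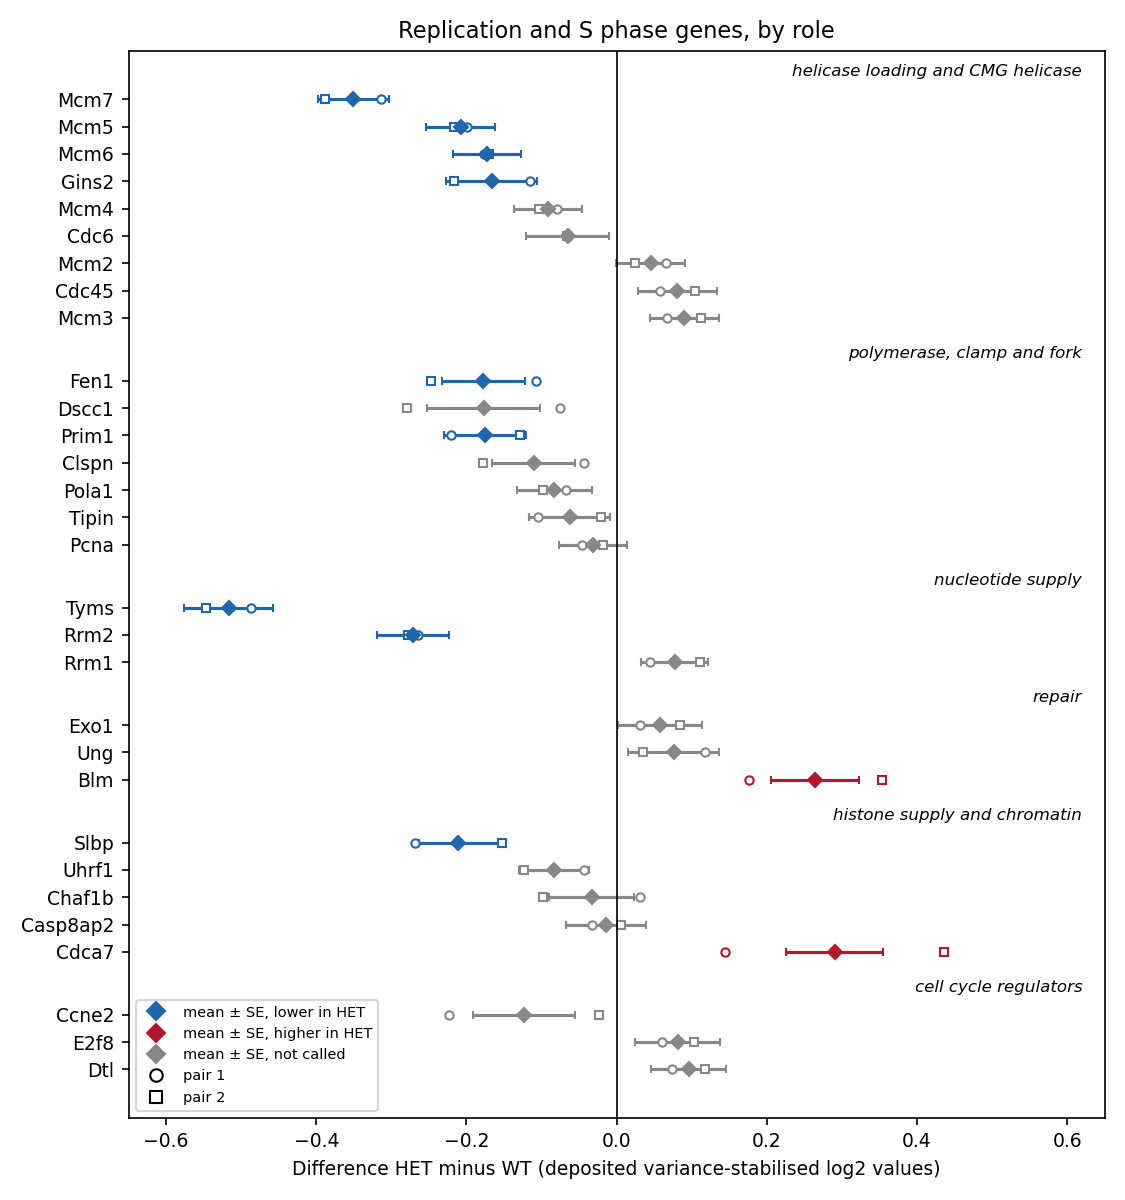
Difference between HET and WT (x axis, deposited log2-like values) for the 30 members, grouped by role and ordered within a role. Diamonds with bars are the mean ± moderated SE, open circles pair 1 and open squares pair 2; blue marks the 9 members called lower, red the 2 called higher and grey the 19 not called. Tyms lies farthest to the left at -0.52 and Cdca7 farthest to the right at 0.29.

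The ring subunits of the helicase moved unequally. Mcm7 lay at 11.85 and 11.89 in the WT libraries and at 11.54 and 11.50 in the HET libraries, and its normalised count fell by 23.1%, with a difference of -0.35 ± 0.05 (limma adjusted p = 2.69e-05). Both HET values were below both WT values. Mcm5 lay at 11.77 and 11.78 in WT and at 11.57 and 11.56 in HET, a difference of -0.21 ± 0.05 (adjusted p = 0.00223). Mcm6 lay at 12.06 in both WT libraries and at 11.89 in both HET libraries, a difference of -0.17 ± 0.05 (adjusted p = 0.00682). These 3 genes fell in pairs that were nearly alike, with pair differences of -0.31 and -0.39 for Mcm7, -0.20 and -0.22 for Mcm5, and -0.18 and -0.17 for Mcm6.

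The remaining ring subunits were not called. Mcm4 differed by -0.09 ± 0.05 (adjusted p = 0.126), Mcm2 by 0.05 ± 0.05 (adjusted p = 0.460) and Mcm3 by 0.09 ± 0.05 (adjusted p = 0.133). The mean of Mcm5, Mcm6 and Mcm7 minus the mean of Mcm2, Mcm3 and Mcm4 was -0.02 and -0.005 in the WT libraries and -0.26 and -0.27 in the HET libraries. This grouping was made after the values were seen, and the contrast was not tested. Counted per kilobase of the principal transcript in GENCODE M21, the mean levels of the 6 subunits ran from 964 normalised counts (Mcm5) to 1383 (Mcm6) in WT. In HET they ran from 825 (Mcm5) to 1278 (Mcm3), and Mcm7 went from 1179 to 907 per kilobase.

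Of the members Cdc6, Cdc45 and Gins2, which load the ring or complete the helicase, Gins2, a GINS subunit, was called. It lay at 9.63 and 9.68 in WT and at 9.51 and 9.46 in HET, a difference of -0.17 ± 0.06 (adjusted p = 0.0386). This was the call nearest to the threshold, and it was lost when every gene off the floor value was tested (adjusted p = 0.0687). Cdc45 differed by 0.08 ± 0.05 (adjusted p = 0.242) and Cdc6, the loader of the ring, by -0.07 ± 0.06 (adjusted p = 0.373). Mcm7 shares exon bases with Cops6 and Ap4m1 on the opposite strand, and Gins2 with Gse1. No source used here gives the strand setting of the counting, so reads of such partners cannot be told apart. Cops6, Ap4m1 and Gse1 were also called lower, with differences of -0.15, -0.23 and -0.25. Fen1, Cdc45 and Ccne2 overlap Tmem258, Ufd1l and Ints8 in the same way, and these partners were not called (0.10, 0.04 and -0.03).

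All 7 genes of the polymerase, clamp and fork group had differences below 0, as had 5267 of the 10857 tested genes. Of the 7, 2 were called lower (28.6%), against 18.9% of all tested genes. The 28 other genes of this role lay on both sides, 16 below 0 and 12 above, with a median of -0.009. Prim1, the catalytic subunit of primase, lay at 10.41 and 10.37 in WT and at 10.19 and 10.24 in HET, a difference of -0.17 ± 0.05 (adjusted p = 0.0184). Fen1, the nuclease that trims the flaps of Okazaki fragments, lay at 10.59 and 10.66 in WT and at 10.49 and 10.42 in HET, a difference of -0.18 ± 0.05 (adjusted p = 0.0174). In both genes every HET value was below every WT value, while the groups did not overlap in 79.2% of all tested genes. Dscc1, a subunit of an alternative clamp loader, had a difference of the same size (-0.18 ± 0.08, adjusted p = 0.0743) but the lowest counts of all members, 102 and 121 in WT and 89.6 and 74.1 in HET. It was called lower without a mean-variance trend (adjusted p = 0.0497) and without WT replicate 1 (0.00889). Leaving out HET replicate 1 instead gives the same difference by construction, since the values are centred within pairs, and is no second check. Pcna, the clamp itself, differed by -0.03 ± 0.05, with counts of 4332 and 4287 in WT and 4188 and 4231 in HET. Its level per kilobase was the highest of the members, 2839 in WT and 2773 in HET. Pola1, the catalytic subunit of polymerase alpha, and the fork protection and checkpoint genes Clspn and Tipin differed by -0.08, -0.11 and -0.06, with adjusted p-values between 0.124 and 0.378.

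Nucleotide supply held the largest difference of any member. Tyms, thymidylate synthase, which makes dTMP from dUMP, had 696 and 715 normalised counts in WT and 436 and 423 in HET. Its count fell by 39.1%, and the difference was -0.52 ± 0.06 (adjusted p = 4.97e-06). Of all tested genes 1.93% had a lower difference. Rrm2, the small subunit of ribonucleotide reductase, had 2337 and 2350 counts in WT and 1906 and 1895 in HET, so that its count fell by 18.9%, a difference of -0.27 ± 0.05 (adjusted p = 0.000354). Both genes were lower in each pair, with differences of -0.49 and -0.55 for Tyms and of -0.26 and -0.28 for Rrm2.

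Rrm1, the large subunit of the same enzyme, was not called, with 5529 and 5397 counts in WT and 5708 and 5847 in HET, a difference of 0.08 ± 0.04 (adjusted p = 0.187). Rrm2 minus Rrm1 on the deposited scale was -1.16 and -1.12 in WT and -1.47 and -1.51 in HET, a contrast seen in the data and not tested. The alternative small subunit Rrm2b, which is not a member, was called higher, with 554 and 515 counts in WT and 743 and 795 in HET (difference 0.39 ± 0.06, adjusted p = 9.37e-05).

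**Figure D2:**
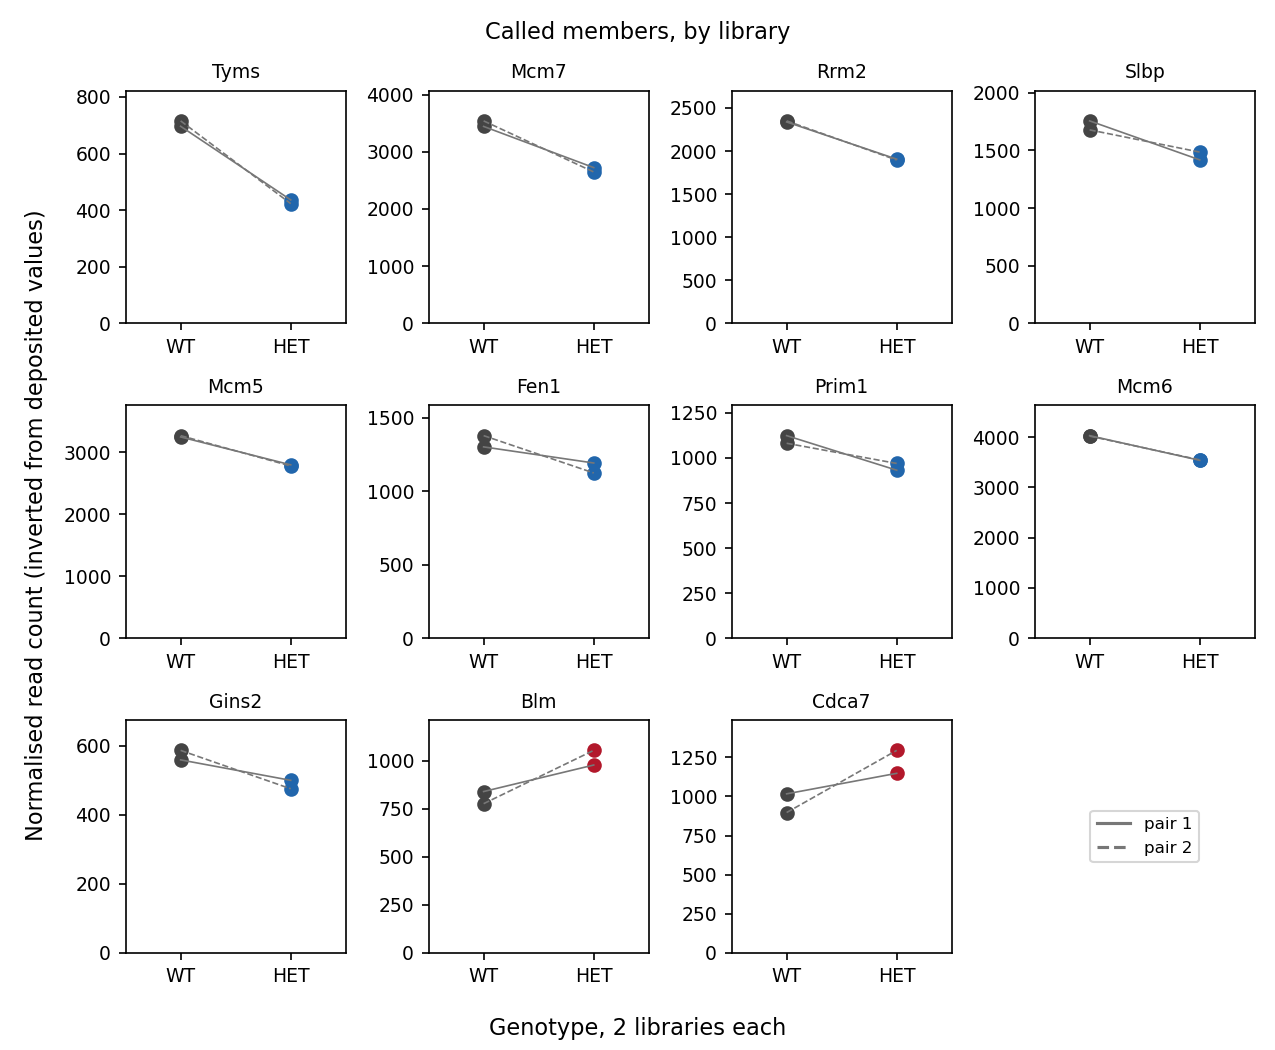
Normalised read counts (y axis from 0, inverted from the deposited values, 1 panel a gene) of the 11 called members in the 2 WT and 2 HET libraries. Solid lines join pair 1 and dashed lines pair 2. No panel shows an overlap of the groups, which held for 79.2% of all tested genes. The pairs are most alike in Rrm2, Mcm5 and Mcm6. Likeness of the pairs is part of what the calls rest on.

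Of the repair members, 1 of 3 was called (33.3%, against 40.4% of all tested genes). Blm, the RecQ helicase mutated in Bloom syndrome, lay at 10.07 and 9.99 in WT and at 10.25 and 10.34 in HET, a difference of 0.26 ± 0.06 and a rise of 25.7% in count (adjusted p = 0.00215). It was higher by 0.18 in pair 1 and by 0.35 in pair 2. Ung, which removes uracil from DNA, differed by 0.08 ± 0.06 (adjusted p = 0.340), and Exo1, an exonuclease of mismatch repair and end resection, by 0.06 ± 0.06 (adjusted p = 0.436).

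The histone and chromatin members were split. Slbp, which binds the stem-loop of replication-dependent histone mRNAs, had 1755 and 1677 counts in WT and 1418 and 1485 in HET, so that its count fell by 15.5%, a difference of -0.21 ± 0.05 (adjusted p = 0.00456). Cdca7, a partner of the chromatin remodeller HELLS, had 1016 and 897 counts in WT and 1148 and 1294 in HET, a rise of 27.6% and a difference of 0.29 ± 0.06 (adjusted p = 0.00213). Its pairs were the least alike of the called members, 0.14 and 0.44, and without the replicate block it was not called (adjusted p = 0.0582). Casp8ap2, which takes part in histone mRNA processing, Chaf1b, a subunit of the histone chaperone CAF-1, and Uhrf1, which brings DNMT1 to newly copied DNA, differed by -0.01, -0.03 and -0.08, with adjusted p-values between 0.168 and 0.862.

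None of the 3 cell cycle regulators among the members was called, where 40.4% of all tested genes were. Ccne2, cyclin E2, had 373 and 335 counts in WT and 291 and 326 in HET (difference -0.12 ± 0.07, adjusted p = 0.165), and its pairs were unequal, -0.22 and -0.02. It was called lower without WT replicate 2 (adjusted p = 0.0250), which for the same reason is 1 check with leaving out HET replicate 2. E2f8, a repressor of E2F targets, differed by 0.08 ± 0.06 (adjusted p = 0.275), and Dtl, the substrate receptor that directs CDT1 to destruction, by 0.10 ± 0.05 (adjusted p = 0.140).

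The E2F match was present in 3 of 8 members called lower that had a promoter entry (Mcm5, Mcm6, Mcm7), in 5 of 14 not called and in 1 of 2 called higher (Cdca7). Tyms and Rrm2, with the first and the third largest falls on the deposited scale, had no match in these windows. A CCAAT box was present in 6 of 8 called lower and in 11 of 14 not called.

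The rest of the pathway was described with 141 other genes in 6 lists, of which 140 were tested. Of these, 25 (17.9%) were called lower and 22 (15.7%) higher, and the median difference was -0.004. Both shares lie below the 18.9% and 21.5% of all tested genes.

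Origin licensing and firing genes had 5 called higher and 0 lower of 22. The share called higher, 22.7%, was near the 21.5% of all tested genes. Recql4, a helicase that acts in origin firing, rose by 0.29 ± 0.06, Orc4, an origin recognition subunit, by 0.23 ± 0.06 and Cdt1, the licensing factor, by 0.23 ± 0.05. Cdt1 had 1663 and 1613 counts in WT and 1928 and 1987 in HET. The inhibitor of CDT1, Gmnn, was not called (-0.02 ± 0.05). Among the other polymerase, clamp and fork genes 6 were lower (21.4%) and 3 higher (10.7%) of 28, against 18.9% and 21.5% of all tested genes. The largest falls were in Rnaseh2c, a subunit of RNase H2 (-0.29 ± 0.06), Rfc3, a clamp loader subunit (-0.27 ± 0.06), and Chtf18, which works in the same alternative clamp loader as Dscc1 (-0.27 ± 0.07). Pold2, Top1 and Pold4 rose by between 0.23 and 0.25, the first and last of them subunits of DNA polymerase delta.

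Other genes of nucleotide supply were called in both directions, 6 lower (25%) and 8 higher (33.3%) of 24. The share called, 58.3%, was the largest of the 6 lists, where 40.4% of all tested genes were called. Lower were Dck, deoxycytidine kinase (-0.33 ± 0.05), and Dut, which clears dUTP and provides dUMP (-0.30 ± 0.06). Thymidine kinase, Tk1, was also lower (-0.18 ± 0.05), as were Paics and Samhd1. Dctd, the deaminase that makes dUMP, was higher by 0.23 ± 0.07. Besides Rrm2b, the largest rises were in Shmt1, serine hydroxymethyltransferase (0.31 ± 0.06), and Atic, a purine synthesis enzyme (0.27 ± 0.05). Impdh1, Nme1, Ctps and Pfas rose by between 0.15 and 0.26.

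Of the other repair genes 3 were lower and 3 higher of 33 (9.09% each). Brca2, which acts in homologous recombination, differed by -0.35 ± 0.05, with 1298 and 1344 counts in WT and 1005 and 969 in HET. Rad54l, of the same pathway, was also lower, with a difference of -0.19. In the histone and chromatin list 2 were lower and 2 higher of 14 (14.3% each). The shares of both lists lie below the 18.9% lower and 21.5% higher of all tested genes. The histone chaperones Asf1b and Nasp differed by -0.37 ± 0.06 and -0.21 ± 0.05, and Lsm11 and Npat, which act in making histone mRNA, by 0.18 ± 0.07 and 0.14 ± 0.05.

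Cell cycle regulators of the wider list had 8 called lower (42.1%) and 1 higher (5.26%) of 19, against 18.9% and 21.5% of all tested genes. Their median was -0.11. E2f2 differed by -0.31 ± 0.07, Ddb1, the adaptor of the ligase that DTL serves, by -0.28 ± 0.04, and Ccne1, cyclin E1, by -0.27 ± 0.06. Rbl1, the retinoblastoma relative p107, was the 1 gene called higher (0.23 ± 0.05). E2f1 was not called (0.10 ± 0.06, adjusted p = 0.192).

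**Figure D3:**
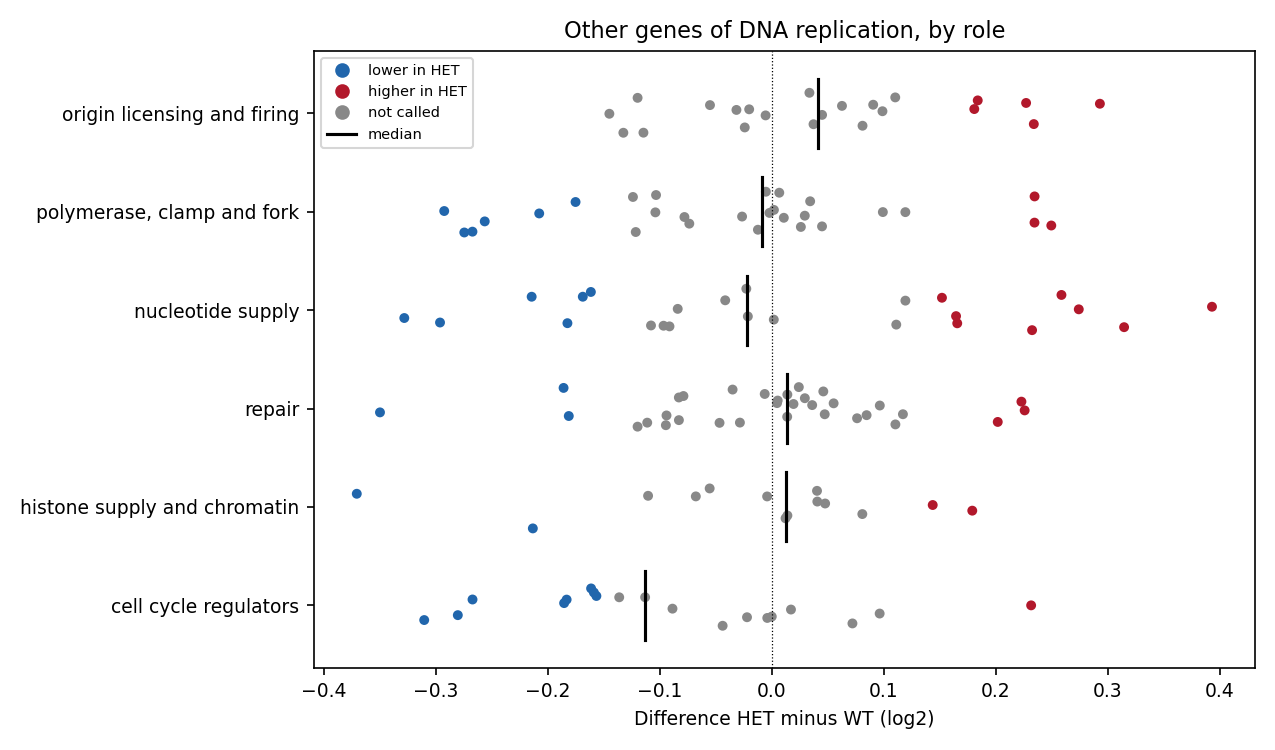
Difference between HET and WT (x axis, log2-like scale) of the 140 other tested replication genes in 6 lists by role (rows; vertical scatter has no meaning). Points are genes, blue called lower, red called higher and grey not called, and the black bar is the median. Calls lie on both sides in every list except origin licensing and firing. That list has 5 higher (22.7%, against 21.5% of all tested genes) and 0 lower.

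Of 29 G2/M and mitotic genes 19 were called lower (65.5%) and 0 higher. Of all tested genes 18.9% were called lower and 21.5% higher. The G2/M list had a median of -0.23 and summed counts of 80686 and 81110 in WT and 68270 and 68018 in HET. Bub1b, a spindle checkpoint kinase, showed the largest difference, -0.52 ± 0.05. The proliferation marker Mki67 was not called (-0.11 ± 0.04, adjusted p = 0.0503). Whether the lists differ from each other was not tested.

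**Figure D4:**
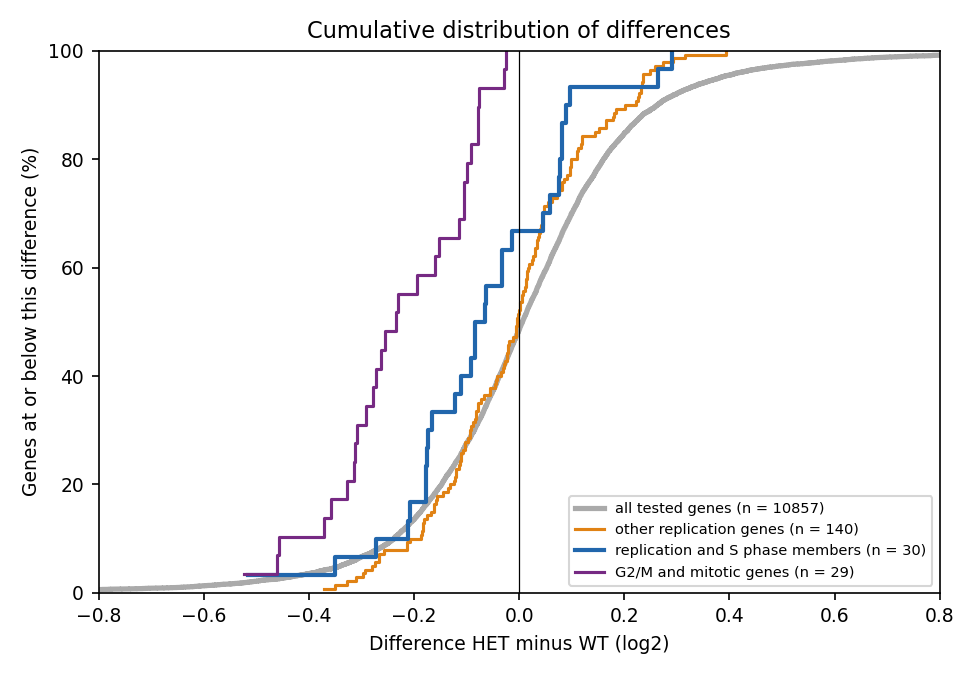
Cumulative share of genes (y axis, percent) at or below each difference between HET and WT (x axis, log2-like scale, shown from -0.8 to 0.8). The 30 members (blue) have a median of -0.07 and all 10857 tested genes (grey) one of 0.01, the 140 other replication genes (orange) have a median of -0.004, and the 29 G2/M genes (purple) all lie below 0.

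Facts of the whole series bear on these values. Nfe2l2 itself was not called (-0.10 ± 0.05), and a substitution need not change its level, while its target Nqo1 was higher by 2.23. All 8 keratinocyte markers were present in all libraries, and 5 of them (62.5%) were called, where 40.4% of all tested genes were. Sox2 (-0.45), Pitx1 (-0.34), Epcam (-0.22) and Krt14 (-0.13) were lower in HET and Itgb4 (0.28) higher. Krt5 (-0.02 ± 0.05) and Trp63 (0.10 ± 0.06) were among the 3 not called, and the summed counts of the list were 141873 and 137044 in WT and 131365 and 136134 in HET. Summed counts of 9 fibroblast markers were 559 and 557 in WT and 223 and 239 in HET. Most of that fall was in Col1a1, which had 305 and 333 in WT and 44.9 and 36.7 in HET. Col1a2, Col3a1 and Twist1 were also lower in both pairs, Pdgfra and Pdgfrb were lower in pair 1 only, and Lum was at 0 in all libraries. Dcn and Thy1, too low to be tested, were higher in both pairs. Thy1 had 0.218 and 0.989 counts in WT and 6.73 and 4.26 in HET. Dcn was near 0 in WT and had 10.8 and 10.7 in HET. The 6 immune markers summed to between 164 and 184 in WT and between 370 and 406 in HET, nearly all from Cd68, with Ptprc, Cd3e and Adgre1 at 0. Muscle markers summed to at most 21.8 and endothelial markers to at most 30.2 counts in any library. Xist, the RNA of the inactive X chromosome, lay at 11.99 and 12.17 in WT. In HET it lay at 7.30 and 7.12, near the shared floor of 6.978. Any difference in sex or X chromosome state behind these Xist values cannot be told apart from genotype. The member Pola1 lies on the X chromosome. The part of these differences in the values of the members was not tested, and genotype and source animal cannot be told apart.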

How the data were processed

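Poly(A) RNA of 2 WT and 2 HET libraries was prepared with TRIzol and NEBNext Ultra, per the labels' protocols. Tools in the submitters' processing notes are Salmon 0.11.3, STAR 2.5.2b, DESeq2 and DESeq 1.22.2, with the build mm9 and no roles. The design text of the series describes a different experiment, so the sample labels were followed. The authors deposited variance-stabilised values on a log2-like scale for 24444 genes; 8120 genes share a floor of 6.978 in all libraries. Depth is not given; counts below come from inverting the stabilisation at the floor and are approximate. They sum to between 13479863 and 13928658 a library.

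In every gene the WT and HET values of replicates 1 and 2 have equal sums (largest gap 1.31e-13). The values had thus been centred on the replicate number, which pairs the libraries, though no label records it. Genotype with the replicate number as a block (1 residual degree of freedom, prior 14.6) was fitted with limma 3.58.1 in R 4.3.3. Trended empirical Bayes and Benjamini-Hochberg adjustment were used. The fit was also run on simulated data whose noise was drawn from the spread fitted here, which is no independent check. Results of that run are not reported here. Genes at least 1 above the lowest value in at least 2 libraries were tested. Members and lists, including the rule for named genes (all members, and up to 3 called genes in each direction from each wider list), were chosen with earlier results of these data known. A few more genes are named as partners or enzymes of the same step, chosen after their values were seen; some genes the rule names are not reported here. Promoters were searched in Python 3.11.15.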

Additional observations from a re-analysis of the deposited data

How the results depend on the processing

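Each result was recomputed under 12 planned settings and 1 chosen after seeing the data. No member changed sign where it was tested (Dscc1 in 12 of the 13 settings), but most settings could not have shown a change. The block, the filters, the trend and the robust fit leave the difference itself as it is. With 1 library left out it is a weighted mean of the 2 pair differences, which share a sign in 28 of 30 members. For these 28, only median centring, quantile normalization and the scale log2(normalised count + 1) could have changed the sign. Without the replicate block, limma called 12 members lower and 5 higher, 39 other replication genes lower and 28 higher, and 6004 genes in all; the block decides the call of Cdca7 among the 11 called members. Since the values are centred within pairs, the spread between the WT libraries equals that between the HET libraries, so the fit without the block counts 1 spread as 2 degrees of freedom. With no filter on low values, limma called 0 genes, 0 members lower, 0 higher, and 0 other replication genes in either direction, although 3942 genes, 8 members among them, had an unadjusted p under 0.05. That setting includes the 8120 genes with no spread at all. Leaving out only these genes, the setting added later, gave 3840 calls, with 8 members lower and 2 higher. After quantile normalization the median of the members was -0.10. With 1 library left out, genotype was fitted alone and the lone library was assumed to vary like the others. The centring makes leaving out either library of a pair give the same differences, so these 4 settings are 2 checks, and the libraries kept still carry the one left out. They say little about stability. The calls then ran from 5008 to 5463 genes, from 10 to 12 members lower and from 2 to 4 higher (4 without replicate 1 of either genotype), and the median from -0.07044 to -0.06956. Median centring, quantile normalization, robust empirical Bayes, the filter at 2, the fit without a trend and the scale log2(normalised count + 1) gave 9 or 10 members lower and 2 higher. The smallest difference called among the members was 0.17 in size and the largest not called 0.18.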

Other observations

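Replication-dependent histone genes, whose mature mRNAs end in a stem-loop and carry no poly(A) tail, were mostly under the test's filter in these poly(A) libraries. Of 69 rows with such names 3 were tested and 0 were called by limma, while 1 had an unadjusted p under 0.05. Hist1h2bc differed by -0.16 ± 0.07 (unadjusted p = 0.0312, adjusted p = 0.0711) and Hist1h1c by -0.11 ± 0.07 (adjusted p = 0.219). The counts of the 69 rows summed to 909 and 949 in WT and to 677 and 656 in HET, a ratio of 0.718. These genes are close copies of one another, so single values are uncertain, and the sum was not tested.

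The MRN complex, which senses and trims DNA double-strand breaks, was picked out after the values were seen. All 3 of its genes were called higher, Nbn by 0.23 ± 0.06, Rad50 by 0.22 ± 0.05 and Mre11a by 0.20 ± 0.05. They were the only repair genes of the wider list called higher, 3 of 33. That is 9.09%, below the 21.5% of all tested genes called higher. No test beyond the single-gene fits was made.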
